A study of Mus musculus with 2 samples.

Results

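Mir218-1 and Mir218-2 are the mouse genes that encode the microRNA miR-218, and each lies inside an intron of a Slit gene, Mir218-1 in Slit2 and Mir218-2 in Slit3. They were found by their Ensembl identifiers, which GENCODE M21 pairs with these symbols. Both of the 2 genes were present among the 1973 miRNA genes listed in the deposited tables. Small RNA (microRNA-seq) had been sequenced from hearts of healthy B6NCrl mouse embryos at embryonic day 16.5, with male and female embryos pooled. The labels hold a single group of 2 biological replicates, without any treatment, mutation or transgene. Replicate 2 pooled hearts of 41 embryos, and replicate 1 was also a pool, of a size not given in the labels used here. No conditions could be contrasted. The values therefore describe the counted reads of each gene in the heart, the balance between the 2 genes, and the difference between the 2 pools.

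Slit proteins are secreted ligands that act through Robo receptors, and are known for their part in guiding axons. In the developing heart and vessels Slit and Robo also take part in cell migration and in forming the chambers and their partitions. The primary transcripts of Slit2 and Slit3 carry the miR-218 hairpins, and the mature miRNA is known to repress Robo1 and Robo2, which places it in a loop with its own host genes. In zebrafish, miR-218 has been tied to migration of heart precursors and to the heart transcription factor tbx5. In mouse, miR-218 is best known as an abundant miRNA of motor neurons. A miRNA hairpin is cut to give a mature strand from each side, called the 5p and the 3p arm, and bases 2 to 8 of a mature strand (the seed) do most of the pairing with target RNAs.

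The mature sequences are shown because the 2 genes share one arm and differ in the other, which bears on every count below. They are RefSeq sequences on GRCm38.p6, written 5′ to 3′, with the seed in capitals. The last is the other listed mouse miRNA with the seed of miR-218-5p.
miR-218-5p, from both genes: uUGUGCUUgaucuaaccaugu
miR-218-1-3p, from Mir218-1: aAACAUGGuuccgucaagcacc
miR-218-2-3p, from Mir218-2: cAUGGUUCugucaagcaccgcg
miR-7002-3p, from Mir7002: uUGUGCUUccccuugccag

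The 5p arm was the same in all 21 bases at both genes, so the sequence that carries the known targeting of miR-218 cannot be assigned to either gene. The annotated 3p arms start at different bases of the hairpin and therefore have different seeds. Over the 19 bases that both annotated 3p arms cover, 18 were identical and 1 differed. In the lines that follow the differing base is in capitals.
miR-218-1-3p: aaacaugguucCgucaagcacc
miR-218-2-3p: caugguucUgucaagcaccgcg

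The complete hairpins follow, with both mature arms in capitals, to show where the copies part outside the arms.
Mir218-1: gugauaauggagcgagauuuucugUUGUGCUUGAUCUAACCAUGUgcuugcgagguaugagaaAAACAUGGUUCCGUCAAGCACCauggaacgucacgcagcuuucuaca
Mir218-2: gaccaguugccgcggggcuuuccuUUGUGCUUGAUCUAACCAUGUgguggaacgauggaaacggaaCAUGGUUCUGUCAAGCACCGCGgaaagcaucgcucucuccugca

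Each hairpin is 110 bases long. In a global alignment of 115 columns, 81 columns (70.4%) were identical and 10 held a gap. Outside both arms the identity was lower, at 38 of 69 columns (55.1%). The hairpin of Mir218-1 was 45.5% G and C and that of Mir218-2 54.5%. The folding energies that RNAfold predicted were -36.6 kcal/mol for Mir218-1 and -42.3 kcal/mol for Mir218-2, with 63.6% and 61.8% of bases paired.

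**Figure D1:**
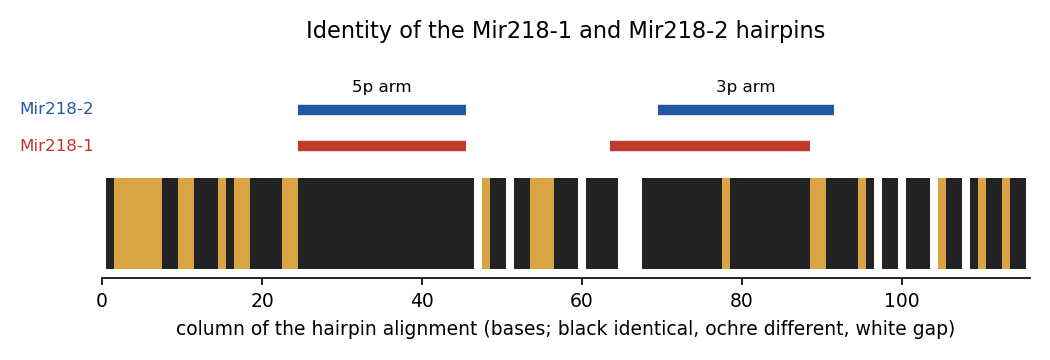
Columns of the alignment of the 2 hairpins, black where the base is the same, ochre where it differs and white at a gap, with the annotated 5p and 3p arms of each gene drawn above (a bar runs on over gaps in that hairpin). The 5p arms lie over one unbroken black run, and the 3p arms overlap with 1 ochre column inside the overlap.

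The longest stretch common to both hairpins had 22 bases, the 5p arm and its next base. It is given here with 3 flanking bases on each side in capitals, which are what would tell a longer read from one gene from a read of the other.
Mir218-1: CUGuugugcuugaucuaaccaugugCUU
Mir218-2: CCUuugugcuugaucuaaccaugugGUG

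Of the 91 windows of 20 bases in the Mir218-1 hairpin, 3 were also in that of Mir218-2, and of the 89 windows of 22 bases 1 was. No window of 24 bases was common to both. No 20-base window of either hairpin occurred in any other RefSeq mouse miRNA hairpin. Only exact matches were sought, and the rest of the genome was not searched. Reads matching several places in the genome were counted in no gene, and they made up 29.5% of the reads of replicate 1 and 31.9% of those of replicate 2. A read that is exactly miR-218-5p matches both genes. The counts below therefore cover reads that could be placed at one gene, and the level of all miR-218 reads was not analysed here. How many of the placed reads came from the 3p arm and how many from longer or shifted 5p reads was not analysed here either, since the tables hold 1 count per gene and strand.

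Mir218-1 (ENSMUSG00000065603.1; mm10 chromosome 5, 48223942 to 48224051, plus strand) was intronic in Slit2 (47983138 to 48307733, plus strand). All 7 annotated Slit2 transcripts that span the hairpin carry it in an intron. In the coding transcript with the longest span on the genome, of 36 exons, it lay in intron 14, which is 4572 bases long, and 601 bases before the next exon. A short Slit2 transcript annotated as non-coding starts 471 bases upstream of the hairpin. Mir218-2 (ENSMUSG00000065583.1; mm10 chromosome 11, 35616816 to 35616925, plus strand) was intronic in Slit3 (35121224 to 35708507, plus strand). Its one spanning transcript also has 36 exons, and the hairpin also lay in intron 14, here 9571 bases long. The intron number depends on the transcript chosen: in the other coding Slit2 transcripts that span the hairpin, Mir218-1 lay in intron 15 (in the transcript with 37 exons) or intron 16 (in those with 38 and 39 exons). The distance from the host's start was 240804 bases for Mir218-1 and 495592 bases for Mir218-2. The mRNA levels of Slit2 and Slit3 were not analysed here.

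**Figure D2:**
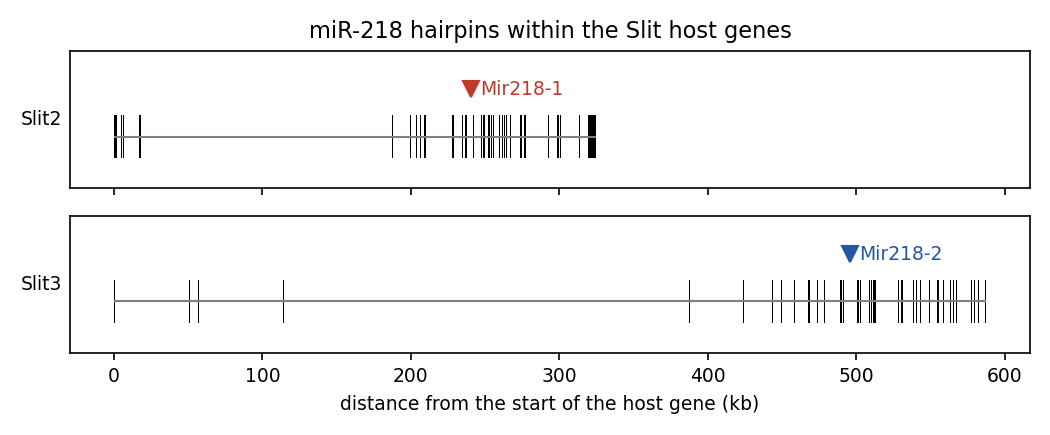
Exons (black, widened to at least 0.8 kb to be visible) of the coding transcript of Slit2 and of Slit3 with the longest span on the genome, against the distance in kb from the start of each host gene, with the position of each miR-218 hairpin. Both hairpins lie past the middle of the host, in the densely exonic part.

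Both genes were read in both libraries, at low levels. Mir218-1 had 100 counts in replicate 1 and 78 counts in replicate 2. Per 1000000 sense counts at all miRNA genes (CPM), these were 15.4 CPM in replicate 1, with a Wilson 95% interval of 12.7 to 18.8, and 13.4 CPM in replicate 2, with an interval of 10.7 to 16.7. Mir218-1 was thus slightly lower in replicate 2, with overlapping intervals, and averaged 14.4 ± 1.48 CPM (SD, n = 2). Mir218-2 had 128 counts in replicate 1 and 157 counts in replicate 2. These were 19.8 CPM (interval 16.6 to 23.5) and 26.9 CPM (interval 23.0 to 31.4), with a mean of 23.3 ± 5.02 CPM (SD, n = 2). Mir218-2 was the higher of the pair in both libraries, and its lower library stood above the higher library of Mir218-1. All intervals here cover counting error only: PCR copies of a molecule are not independent, and no labels used here mention identifiers that would mark them.

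**Figure D3:**
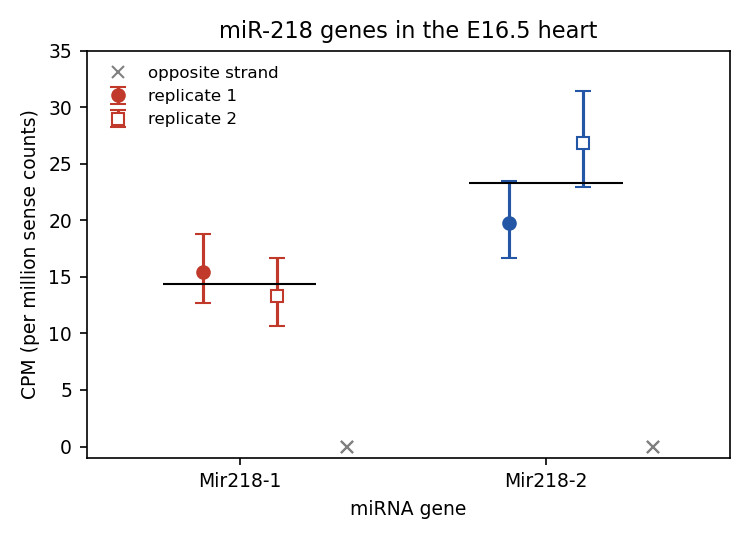
CPM of Mir218-1 and Mir218-2 in replicate 1 (filled circle) and replicate 2 (open square), with Wilson 95% intervals as bars, the mean as a black line and the opposite-strand value of the same locus as a grey cross. Mir218-2 lies above Mir218-1 in both libraries, and all crosses are at 0.

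The opposite strand had 0 counts at both genes in both libraries, which allows up to 3 counts, or 0.463 CPM in replicate 1 and 0.514 CPM in replicate 2. This was the common pattern: 333 of the 365 genes detected, meaning those with at least 10 sense counts in each library, had no opposite-strand count in either (91.2%). The counts of both members therefore came from the strand of the hairpin and of the Slit host.

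Together the 2 genes gave 228 counts in replicate 1 and 235 in replicate 2, or 37.7 ± 3.54 CPM (SD, n = 2). The sum differed less between the pools than the level of Mir218-2 did. Among the 365 detected genes Mir218-2 ranked 248 and Mir218-1 ranked 264 by mean CPM, and 32.1% and 27.7% of detected genes were lower. The median detected gene stood at 107.6 CPM, above both. Counts of different miRNAs were not divided by length, because a read of a miRNA covers about a whole mature strand, and equal efficiency of reading was not tested. The 2 members are alike in hairpin length.

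Mir7002, whose 3p strand has the seed of miR-218-5p, had 2 counts in replicate 1 and 0 in replicate 2. It was not detected, and both miR-218 genes had more counts in each library. Which of the placed reads carried this seed was not analysed, because counts are per gene and the miR-218 3p arms have other seeds. Reads that are exactly miR-218-5p are also missing, so these counts do not show which miRNA gave most of the seed.

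The balance between the copies was compared within each library, where depth and scaling cancel. A difference between the copies in how well their reads are captured, or placed at one gene, does not cancel and was not tested. The tests against equality therefore concern counted reads, and equal counts need not mean equal expression. In replicate 1, Mir218-2 held 56.1% of the 228 counts (exact Clopper-Pearson 95% interval 49.4 to 62.7), which is 1.28 counts for each count of Mir218-1 (interval 0.978 to 1.68). The interval includes equal counts, and the two-sided exact binomial test against equality gave p = 0.0735, also 0.0735 after Benjamini-Hochberg adjustment over the 2 libraries. In replicate 2, Mir218-2 held 66.8% of the 235 counts (interval 60.4 to 72.8), a ratio of 2.01 (interval 1.52 to 2.68). Here the exact test gave p = 2.82e-07 (adjusted 5.64e-07). Mir218-2 was higher in 2 of 2 libraries, with a mean log2 ratio of 0.68 ± 0.46 (SD, n = 2), but its excess was larger than counting error in replicate 2 alone.

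The ratio itself was 1.57-fold larger in replicate 2 than in replicate 1, and Fisher's exact test (two-sided) of this difference gave p = 0.0218. To see how this compares with other miRNAs, the same split was computed, after the values were seen, in every family with numbered copies. Of 45 families with at least 2 listed copies, 17 had at least 2 detected copies, and in all of these the number listed was 2. After Benjamini-Hochberg adjustment over the 17 families the exact p for miR-218 was 0.0926, so it did not pass. The split passed in 3 families, Mir92 (adjusted exact p = 7.1e-20), Mir181a (0.00018) and Mir30c (0.0492), which have more counts.

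In points of share, the move of 10.7 for Mir218 was the largest of the 17 families, against a median move of 2.28 points. As a fold change of the ratio of the copies, which does not shrink as a share nears 100%, Mir92 moved more, by 1.65-fold against 1.57-fold for Mir218 and 1.52-fold for Mir129. Next were Mir129 with 6.55 points and Mir30c with 6.003 points. Shares of families with few counts have wide intervals. The Wilson interval of the miR-218 share was 49.7 to 62.4% in replicate 1 and 60.6 to 72.5% in replicate 2. The 2 intervals overlapped. By the mean share of the highest copy, Mir218 at 61.5% ± 7.54 (SD, n = 2) was the fifth most even family, behind Mirlet7a, Mirlet7c, Mir194 and Mir138. The median family gave 69.4% to its highest copy, and the most uneven, Mir181b, 97.9% in replicate 1 and 98.0% in replicate 2. The highest copy held over 50% in both libraries in 16 of 17 families, miR-218 included, and Mirlet7a was the exception. By summed level Mir218 ranked 13 of 17, with the family levels running from 7.58 CPM for Mir19b to 2070 CPM for Mir92.

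**Figure D4:**
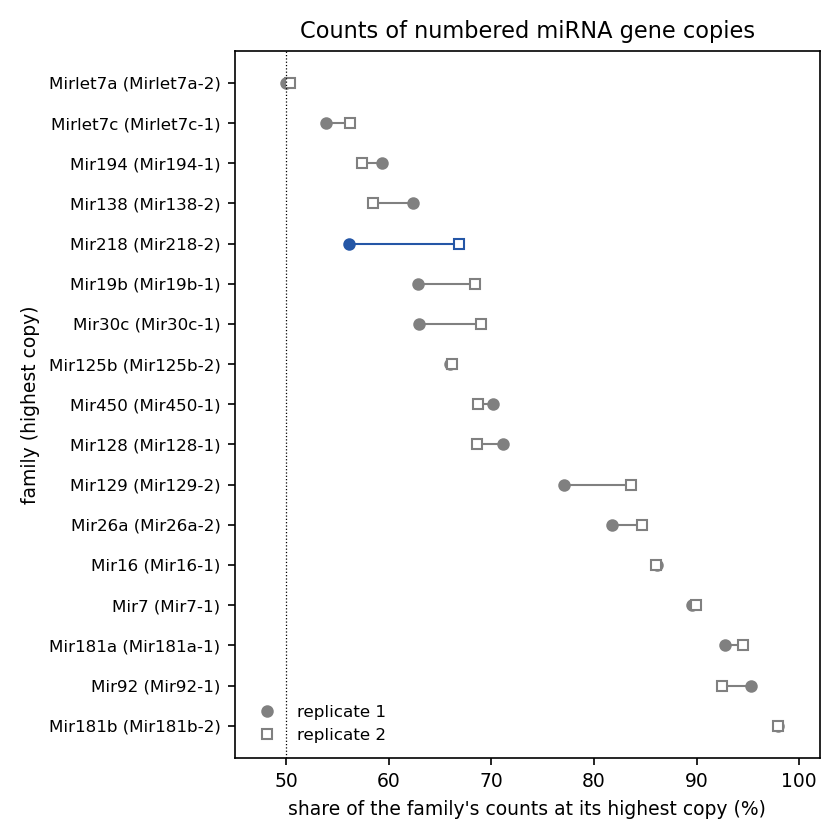
Share (%) of a family's counts that fell on its highest copy in replicate 1 (filled circle) and replicate 2 (open square), for the 17 families with numbered copies of which at least 2 were detected, ordered from the most even at the top; the dotted line marks equal counts. Mir218, in blue, has the widest distance in points of share between the 2 libraries, from 56.1% to 66.8%.

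The arrangement of a shared and an own arm was not particular to the 2 genes. Of the 1973 listed genes, 916 had a mature sequence under the same symbol in the RefSeq table. Among these, 53 genes had, like both miR-218 genes, 1 mature arm identical at another locus and 1 arm of their own, a class formed after the data were seen. In this class 37 genes (69.8%) were detected, with a median of 48.6 CPM. Mir218-2 ranked 27 and Mir218-1 ranked 31 of the 37, so both lay in the lower part of the detected genes. Over all 53 genes of the class, detected or not, the median was 23.3 CPM, the level of Mir218-2 itself. The detected genes of the class ran from 2.54 CPM for Mir19b-2 to 2418 CPM for Mirlet7f-2. Of the 829 genes with all listed arms their own, 288 (34.7%) were detected, with a median of 132.05 CPM. Of the 34 genes with all listed arms shared 5 (14.7%) were detected, with a median of 44.4 CPM. Over all genes of a class, detected or not, the order differed. The median was then 23.3 CPM with 1 shared arm, 0.411 CPM with own arms and 0 CPM with all arms shared. Some genes, such as Mir1a-1 and Mirlet7a-2, had only 1 arm listed under their symbol and were classed by it. An arm that was not listed could change the class of such a gene. The part that uncounted shared reads have in these levels was not tested.

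The 2 pools were next compared for each gene, with edgeR's TMM scaling and a two-sided exact binomial test adjusted by Benjamini-Hochberg over all 365 detected genes. Mir218-2 was 1.38-fold higher in replicate 2, a log2 ratio of 0.47 (exact 95% interval 0.12 to 0.82) with an adjusted p of 0.0155. It was below the 2-fold minimum set for a call, and therefore was not called. Mir218-1 had a log2 ratio of -0.18 (interval -0.63 to 0.26) with an adjusted p of 0.544, so no difference was detectable at this depth, and a change of over 1.55-fold in either direction lay outside its interval. With the 2-fold minimum 0 of the 2 members were called, against 12 of 365 genes in all (3.29%), 6 higher and 6 lower. Without a minimum fold 1 of the 2 members, Mir218-2, passed, against 169 of 365 genes (46.3%). Of the genes at 10 to 40 CPM, the range that holds both members, 17 of 52 (32.7%) passed without a minimum fold. By direction, 26.0% of the 365 genes were higher in replicate 2 without a minimum fold, 20.3% were lower and 53.7% did not pass.

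These tests compare 2 libraries and carry counting error alone. The spread between the pools over all detected genes was wider, with a median absolute log2 ratio of 0.21, and 0.33 over the 52 genes at 10 to 40 CPM, both members included. Of the other 51 genes in this range, 33 had an absolute ratio at least as large as that of Mir218-1. For Mir218-2 the number was 15 of 51. Differences of this size were thus present at other genes of like level.

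**Figure D5:**
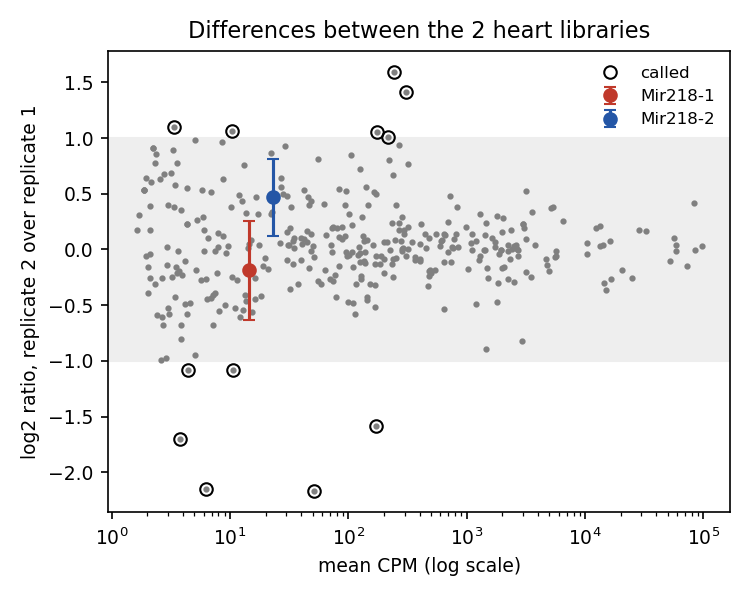
Log2 ratio of replicate 2 over replicate 1 against mean CPM (log scale) for the 365 detected genes; grey points are genes, black circles the 12 called genes, the grey band less than 2-fold, and bars the exact 95% intervals of Mir218-1 (red) and Mir218-2 (blue). Both members lie inside the band among genes of like level.

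Genes with the most similar values over the 2 libraries were taken by distance on the log2 CPM scale. For Mir218-1 they were Mir8112 (0.14), Mir219a-1 (0.16), Mir1198 (0.21), Mir1968 (0.24) and Mir3072 (0.24). Mir8112 gave values of 14.4 CPM and then 14.2 CPM in the same order of libraries, against 15.4 and 13.4 for Mir218-1. For Mir218-2 they were Mir504 (0.10), Mir760 (0.14), Mir184 (0.29), Mir338 (0.31) and Mir129-2 (0.32). Mir504 stood at 20.2 CPM and 25.2 CPM, against 19.8 and 26.9 for Mir218-2. The 2 members were not near each other by this measure: their distance was 1.07, and 32 genes were nearer to Mir218-1 and 32 nearer to Mir218-2 than the other copy. With 2 libraries such likeness is a closeness of level and of 1 difference, and no pattern over conditions.

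The members were set beside marker miRNAs of the cells a heart sample can hold. Of the heart muscle markers hosted by myosin genes 3 of 3 were detected, the highest being Mir208b at 58261 ± 1172 CPM. The muscle miRNAs Mir1a-1 and Mir133a-1, which were not on that list, stood at 2.41 CPM and 2.67 CPM, below both miR-218 genes; each has another copy with which it shares a mature sequence. The highest endothelial marker was Mir126a at 85049 ± 1170 CPM (3 of 3 detected), and the highest of smooth muscle and fibroblasts was Mir143 at 96423 ± 348 CPM (6 of 7 detected). Blood markers were led by the erythroid Mir451a at 1511 ± 209 CPM (3 of 3 detected) and the myeloid Mir223 at 402 ± 3.79 CPM (4 of 4 listed). Mir122, a liver miRNA, stood at 161 ± 0.97 CPM. Both miR-218 genes lay below every detected gene of these lists, again with shared reads uncounted.

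Since miR-218 is known from motor neurons, a neuronal list was examined as well. Of its 13 listed genes 8 were detected, led by Mir128-1 at 240.4 ± 74.5 CPM, which other cell types also express. The remaining detected genes with at least 10 CPM were Mir128-2 (105 CPM), Mir138-2 (72.7 CPM), Mir137 (71.1 CPM), Mir138-1 (48.01 CPM), Mir129-2 (22.4 CPM) and Mir153 (10.6 CPM). The listed copies of Mir124a and Mir9 were at or near 0: Mir124a-3 and Mir9-2 had no count in either library, Mir124a-1 and Mir124a-2 had 1 count in replicate 1 and 0 in replicate 2, and Mir9-3 had 16 and 1. Both mature arms of Mir9-2 and of Mir9-3 are identical at another locus, so that reads of these arms match several places, and the Mir124a copies are likewise known to give a common mature miR-124. Their low counts therefore do not measure the level of these miRNAs. Of the 8 detected genes 2 lay below Mir218-1 and 3 below Mir218-2. The summed neuronal list was higher in replicate 2, as Mir218-2 was, with 482 CPM in replicate 1 and 672 CPM in replicate 2. Mir218-1 was not higher in replicate 2, with 15.4 CPM in replicate 1 and 13.4 CPM in replicate 2. Without Mir128-1 and Mir128-2, left out after their values were seen, the sums were 219 CPM and 244 CPM. Mir153 was lower in replicate 2, at 6.68 CPM against 14.5 CPM. Without a minimum fold 4 of its 8 detected genes were higher in replicate 2, 1 was lower and 3 did not pass, and with it 1 was lower; over all detected genes 95 of 365 were higher and 74 lower. The median log2 ratio of the neuronal list was 0.35, against 0.018 over all detected genes. These 8 genes, with a median of 59.5 CPM, were not matched for level to the 365, with a median of 107.6 CPM. Mir206, a skeletal muscle miRNA, was also higher in replicate 2, at 234 CPM against 115 CPM. The part of other cell types in the difference of Mir218-2 was not tested, and in bulk tissue fewer cells of a type and less RNA per cell cannot be told apart.

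Because miR-218 is also studied in blood vessels, a list of 18 vascular miRNAs was examined, all of which were detected. They ran from Mir222, at 34.1 CPM, to Mir126a, with a median of 1886 CPM. By counted reads both miR-218 genes lay below all 18, again with reads of their shared arm uncounted. Between the pools 5 of the 18 were higher in replicate 2, 8 lower and 5 not past the test without a minimum fold, against 26.0% higher and 20.3% lower over all detected genes. With the minimum fold 0 passed. Their median log2 ratio was -0.0081. The median level over all detected genes was 107.6 CPM, so these shares were not matched for level, and higher counts let smaller differences pass.

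The members were also set among 42 miRNAs hosted, like them, by protein-coding genes, of which 41 were listed and 40 detected. The median of the 40 was 946 CPM, and 3 of them lay below Mir218-1 and the same number below Mir218-2. The lowest was Mir211 at 3.79 CPM, which lies in the melanocyte gene Trpm1. Without a minimum fold 21 of the 40 were higher in replicate 2, 10 lower and 9 not past the test, against 95 higher and 74 lower of all 365. As for the vascular list, these shares were not matched for level. The median log2 ratio of the 40 was 0.13, and with the 2-fold minimum 0 were higher and 2 lower. By counted reads the Slit-hosted miRNAs were thus among the lowest of this list.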

How the data were processed

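The authors deposited a table of raw read counts for each library, made on mm10 with annotation M4 per the labels and lists of deposited files. Aligner, counter and trimming are not given in the sources used here. A table has a column for reads of either strand and 1 for each strand. The strand columns added up to the first at all 1973 genes. The strand column with the larger total was taken as sense.

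The libraries held 15207730 and 12885555 reads and 6473482 and 5841568 sense counts. The opening lines, which name no gene (unmapped, several places, outside genes, 0 ambiguous), held 54.9% and 51.7% of reads and stayed out of totals. The 2 libraries differed by more than sampling noise (chi-square of 163 per detected gene). Symbols came from GENCODE M21, which matched 1894 genes, both members included. Sequences are RefSeq's on GRCm38.p6, the build of mm10, and both members matched.

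CPM is counts per 1000000 sense counts. edgeR 4.0.16 (R 4.3.3) gave TMM scaling. With 1 group its quasi-likelihood test had no contrast, so an exact binomial test (scipy 1.17.1) compared the libraries. It was adjusted by Benjamini-Hochberg over 365 genes and tried on simulated counts. Those held sampling noise alone, so the trial cannot show how the test behaves with the wider spread between these libraries. A call needed adjusted p under 0.05 and 2-fold. Log2 ratios had 0.5 added to each count. Hairpins were aligned with Biopython 1.88 and folded with ViennaRNA 2.7.2.

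Named were both members, the 5 genes nearest each, families with numbered copies, the highest gene of each marker list and the ends of the other lists. Members and lists were chosen with earlier results of these data known. Mir7002 was named for its seed. The marker genes below the highest, Mir1a-1 and Mir133a-1, Mir8112 and Mir504 with their values, and the ends of the class with 1 shared arm were chosen after values were seen. Whether the pools were separate collections rests on the labels, so p-values measure only the difference between these libraries. Alternatives included DESeq2 1.42.0 size factors.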

Additional observations from a re-analysis of the deposited data

How the results depend on the processing

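The levels depended on what they were divided by. Per 1000000 of all reads, Mir218-1 stood at 6.31 and Mir218-2 at 10.3. Leaving the most abundant gene out of the total gave 15.9 CPM for Mir218-1 and 25.8 CPM for Mir218-2, and the opposite-strand column gave 0 for both. TMM-scaled sizes and the either-strand column moved both levels by less than the spread between libraries. A single library gave 13.4 to 15.4 CPM for Mir218-1 and 19.8 to 26.9 CPM for Mir218-2.

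The mean log2 ratio of Mir218-2 over Mir218-1 was 0.68 with another added constant (1 or none) or the either-strand column. It was 0.35 without replicate 2 and 1.005 without replicate 1, so 1 library moved the ratio from 1.28 to 2.01. Between the pools, Mir218-1 kept its sign and did not pass in 6 alternatives, with adjusted p from 0.494 to 0.745. Mir218-2 kept its sign, with log2 ratios of 0.44 to 0.47 and adjusted p from 0.0155 to 0.0294, and was called only without the 2-fold minimum, at 0.47. The number of called genes, 12 in the reported setting, was 169 without a minimum fold, 21 without the count filter, 7 with at least 20 counts in each library, and 11 with total-count scaling, DESeq2 size factors or the either-strand column. The change to 169 follows from dropping the minimum fold. For the count filters the cause was not tested, beyond the change in the number of genes tested. The members had 78 to 157 counts in a library, which sets the width of their intervals. No paired analysis was possible because there is only 1 group. Leaving out a library leaves no comparison between libraries, so those results have no such value.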
